A study of Mus musculus with 16 samples.

Results

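The clustered protocadherins are neuronal cell surface proteins encoded by 3 neighbouring gene clusters, alpha, beta and gamma. Their genes were selected by symbol, as Pcdha, Pcdhb or Pcdhg followed by a digit, or Pcdhac, Pcdhga, Pcdhgb or Pcdhgc followed by a digit. This gave 59 of the 24421 genes listed, 15 alpha, 22 beta and 22 gamma. RNA came from the striatum of mice killed at 13 months, 4 mice in each of 4 groups. BACHD+Foxp2 mice had the BACHD genotype and the Foxp2 virus, Con+Foxp2 mice the control genotype and the Foxp2 virus, BACHD+Con mice the BACHD genotype and the control virus, and Con+Con mice the control genotype and the control virus. All 16 mice were therefore injected with a virus. The BACHD line, a model of Huntington's disease, has full-length mutant human huntingtin on a transgenic bacterial artificial chromosome, in addition to the mouse gene. The labels used here name neither the promoter and serotype of the viruses nor the cells they entered.

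Clustered protocadherins have extracellular cadherin repeats, by which most of them bind the same protein on a facing cell. Single neurons choose a small set of the genes by promoter choice, in which the insulator protein CTCF, cohesin and DNA methylation take part, and the combinations let a neuron tell its own processes from those of others. In the alpha and gamma clusters each variable first exon is spliced to constant exons shared by the whole cluster, whereas beta genes are separate single-exon coding genes. The C-type members (Pcdhac1, Pcdhac2, Pcdhgc3, Pcdhgc4 and Pcdhgc5) are placed at the downstream end of their clusters and are expressed more constitutively than the others.

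The clusters lie on chromosome 18 of the mm10 build (GRCm38). The alpha genes span 36930285 to 37188897, the beta genes 37264998 to 37521419 and the gamma genes 37661775 to 37841873, by RefSeq coordinates. Reads assigned to genes numbered 2660395 to 3669748 per library, with a median of 3014100, and the 59 genes took 2230 to 4276 of them, or 0.0819 to 0.133%. A floor of 3 reads, the limit that a count of 0 allows, corresponded to 0.819 to 1.16 CPM (read counts scaled to a common library total). After the filter on low counts, 55 of the 59 genes were tested (11 alpha, 22 beta and 22 gamma) among 13563 genes. Pcdha4, Pcdha6 and Pcdha7 had 0 reads in all 16 libraries, and Pcdha7-g had 64 reads in all. In RefSeq these 3 genes begin at the same place as read-through models (Gm37013, Gm38666 and Pcdha7-g) that reach the end of the gamma cluster, so a read there overlaps more than 1 gene model. The part of this overlap in the 0 values was not tested. The virus label was checked by Foxp2 itself, which averaged 1595 ± 288 CPM in BACHD+Foxp2, 4015 ± 431 in Con+Foxp2, 119 ± 28.6 in BACHD+Con and 118 ± 26.7 in Con+Con mice (SD, n = 4 each).

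Per length, the most abundant members in the striatum were C-type genes of the gamma cluster. Levels are compared, over the 16 libraries, as CPM per kb of GENCODE exon not shared with another gene on the same strand. Pcdhgc3 was at 27.8 and Pcdhgc5 at 21.4 CPM per kb, and together they held 29.7% of the reads of the gamma cluster. The next members were Pcdhga4 at 14.2 and Pcdhga11 at 13.1 CPM per kb. The place of Pcdhga4 depends on a short unshared length, 1570 of 4727 exon bases, against 2637 of 4756 for Pcdhga11. Pcdhac2 was the highest alpha member at 9.80 CPM per kb and held 30.4% of the alpha reads, and Pcdhb20 was the highest beta member at 6.47 CPM per kb. Pcdhgc3, Pcdhgc5 and Pcdhac2 held these places in each of the 4 groups. Pcdhb20 did not, since in Con+Con mice it was at 3.93 CPM per kb, below Pcdhb7 at 4.27 and Pcdhb6 at 4.24, among others. The order of Pcdhga4 and Pcdhga11 also differed between groups, with Pcdhga4 at 9.74 and Pcdhga11 at 11.7 CPM per kb in BACHD+Con mice. All these ranks rest on GENCODE lengths, and the annotation behind the counts is not given. For several beta genes the GENCODE exons are longer than the RefSeq genes. Pcdhb17 and Pcdhb14, for example, have 4660 and 8695 GENCODE exon bases, against RefSeq genes at 37485021 to 37488290 and 37447657 to 37451094. By RefSeq, Pcdhb17 is shorter than Pcdhb20 (37504264 to 37507660), and it averaged 27.3 CPM against 23.0 for Pcdhb20. Pcdhb17 was thus above Pcdhb20 per RefSeq length, and the first place of Pcdhb20 among beta genes depends on the GENCODE lengths. The order of the other beta genes with RefSeq lengths was not tested. The lowest member with reads and a length was Pcdhb1, at 0.774 CPM per kb. Unshared exon was a median of 46.4% of the exon bases of alpha, 100% of beta and 55.3% of gamma members. The clusters were thus measured over different parts of their genes. Pcdha6 and Pcdha7 had 2285 and 2139 unshared bases but 0 reads, so the lengths may differ from the gene models counted. With these limits, members were at a median of 2.43 CPM per kb in the alpha cluster (9 with a length and reads), 3.79 in the beta cluster (22) and 9.17 in the gamma cluster (22). The variation between mice followed the opposite order, with a median biological coefficient of variation of 45.6% over alpha, 31.2% over beta and 22.9% over gamma members. It was 23.7% over all genes tested and 27.2% over the genes within the members' range of level. The sets differed in level, with a median log2 CPM of 2.74 for alpha, 3.73 for beta, 4.69 for gamma and 4.75 for all genes. The part of level in this order was not tested.

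**Figure D1:**
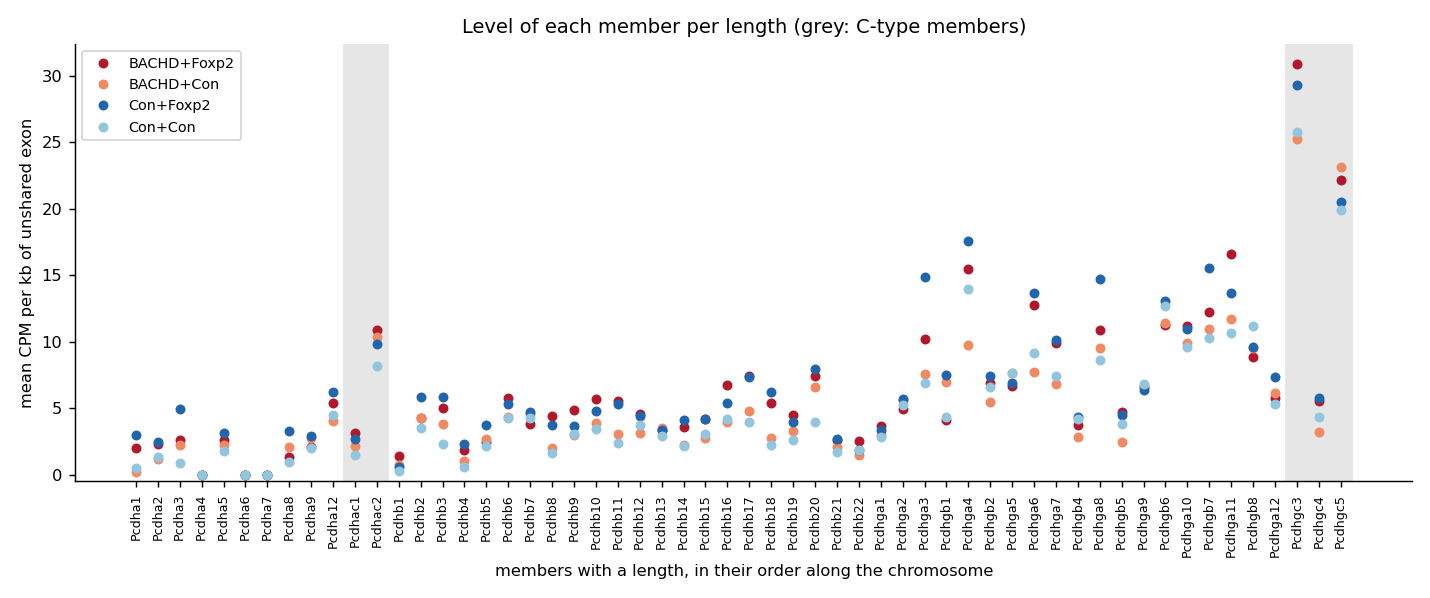
Mean CPM per kb of unshared exon (vertical axis) of each member with a length, in order along the chromosome, with 1 point for each of the 4 groups and C-type members shaded grey. Pcdhgc3 at 27.8 and Pcdhgc5 at 21.4 CPM per kb, over the 16 libraries, stand above the other members.

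The Foxp2 virus comparison asks whether extra Foxp2, a transcription factor of striatal neurons, goes with other levels of these genes. Summed reads of the alpha and beta clusters were higher with the Foxp2 virus in both genotypes, and those of the gamma cluster overlapped between virus groups in BACHD mice. The alpha sum was 106 ± 8.49 CPM in BACHD+Foxp2 and 86.0 ± 8.94 in BACHD+Con mice, and 127 ± 9.42 in Con+Foxp2 and 71.9 ± 10.1 in Con+Con mice (SD, n = 4 each). The beta sum was 407 ± 49.997 CPM in BACHD+Foxp2 and 285 ± 41.6 in BACHD+Con mice, and 406 ± 49.4 in Con+Foxp2 and 247 ± 17.1 in Con+Con mice. In both clusters and both genotypes every Foxp2-virus mouse was above every control-virus mouse of its genotype. The gamma sum was 679 ± 72.9 CPM in BACHD+Foxp2 and 591 ± 61.7 in BACHD+Con mice, where the groups overlapped, and 721 ± 22.5 in Con+Foxp2 and 595 ± 61.9 in Con+Con mice, where they did not. The ratios of the geometric means (from means of log2 CPM) in BACHD mice were 1.23 for alpha, 1.43 for beta and 1.15 for gamma. In control mice they were 1.78 for alpha, 1.64 for beta and 1.22 for gamma. The difference between clusters was not tested. In BACHD mice the log2 ratios of 0.30 for alpha and 0.20 for gamma lay closer together than the spread between mice, a pooled SD of 0.13 for alpha and 0.15 for gamma on the log2 scale, and their order turned when the 3 libraries lowest in markers of cortical excitatory neurons were left out (1.19 for alpha, 1.25 for gamma). In bulk tissue, fewer cells of a type and less RNA per cell cannot be told apart.

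**Figure D2:**
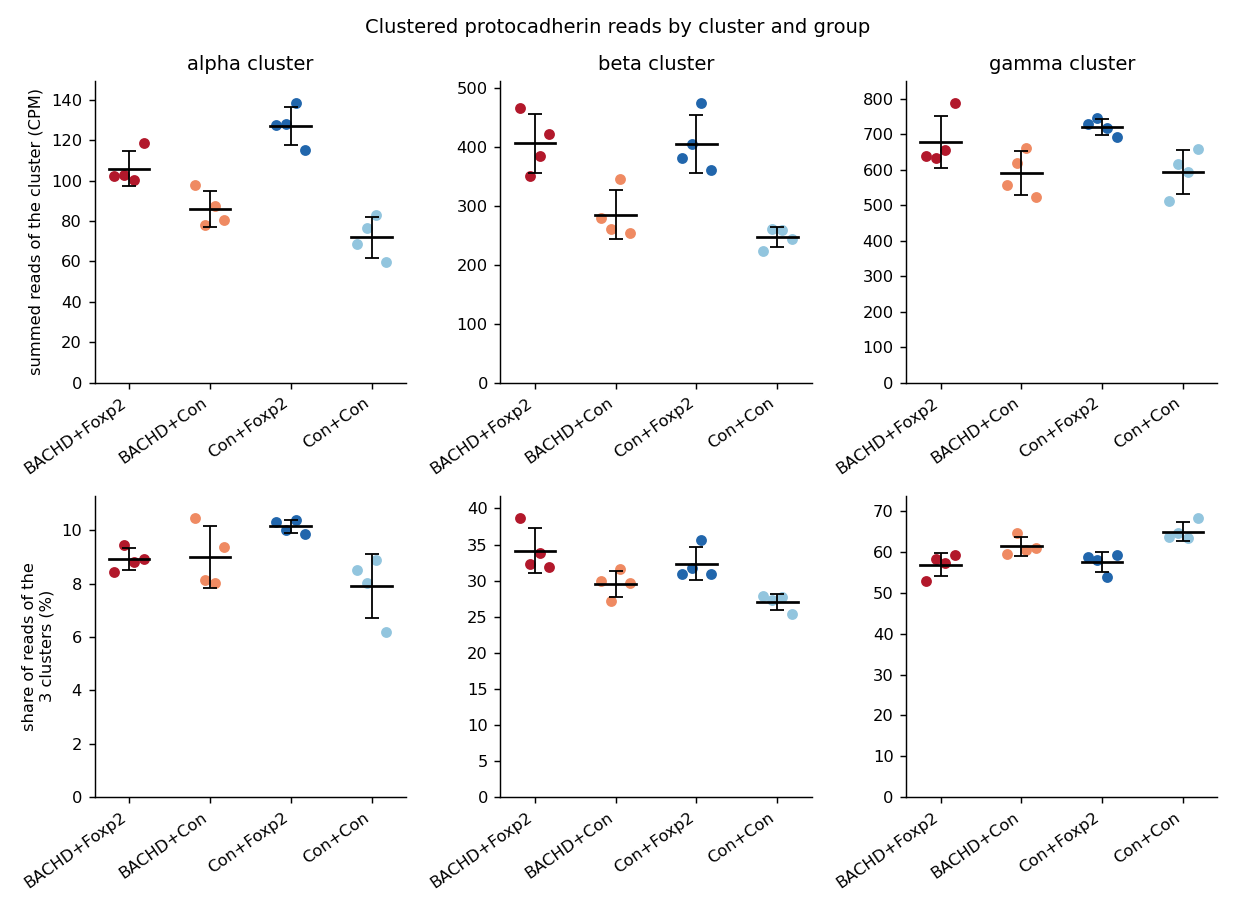
Summed CPM of each cluster (upper row) and its share of the reads of all 3 clusters in percent (lower row), with 1 point per mouse and the mean ± SD in black. The beta sums of Foxp2-virus mice, 351 to 475 CPM, lie above those of control-virus mice of the same genotype.

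Beta genes held a larger, and gamma genes a smaller, share of protocadherin reads with the Foxp2 virus. The beta share of protocadherin reads was 34.1 ± 3.15% in BACHD+Foxp2 and 29.6 ± 1.81% in BACHD+Con mice, and 32.3 ± 2.29% in Con+Foxp2 and 27.1 ± 1.14% in Con+Con mice (SD, n = 4 each). The gamma share was 57.0 ± 2.83% in BACHD+Foxp2 and 61.4 ± 2.24% in BACHD+Con mice, and 57.6 ± 2.45% in Con+Foxp2 and 65.0 ± 2.32% in Con+Con mice. Neither share overlapped between the virus groups in either genotype. The alpha share was 8.90 ± 0.413% in BACHD+Foxp2 and 8.99 ± 1.16% in BACHD+Con mice, where the groups overlapped, and 10.1 ± 0.245% in Con+Foxp2 and 7.90 ± 1.20% in Con+Con mice, where they did not. Within the clusters, the alpha genes other than the C-type members had ratios of 1.32 in BACHD mice and 2.09 in control mice, without overlap. The 5 C-type members together had ratios of 1.11 in BACHD mice and 1.13 in control mice, and their groups overlapped.

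Most members were higher with the Foxp2 virus, in both genotypes. In BACHD mice 41 of the 55 tested members had a positive log2 fold change, against a background of 50.2% of all genes tested, and these were 9 of 11 alpha, 18 of 22 beta and 14 of 22 gamma members. In control mice 52 of 55 were positive, against 49.4% of all genes, and these were 11 of 11 alpha, 22 of 22 beta and 19 of 22 gamma members. The median log2 fold change in BACHD mice was 0.41 for alpha, 0.58 for beta and 0.23 for gamma members. In control mice it was 0.81 for alpha, 0.68 for beta and 0.23 for gamma members, and over all genes tested it was 0.00082 in BACHD mice and -0.0037 in control mice. The same 41 members were positive in both genotypes, and 11 were positive only in control mice. The other 3, all gamma members (Pcdhga5, Pcdhga9 and Pcdhgb8, named for this pattern after their values were seen), were negative in both. RefSeq lists Pcdhgb8 as a transcribed pseudogene. The 2 comparisons use different mice. With 52 of 55 positive in control mice, most of the 41 had to be positive in both, and the share of all genes with these patterns was not counted.

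**Figure D3:**
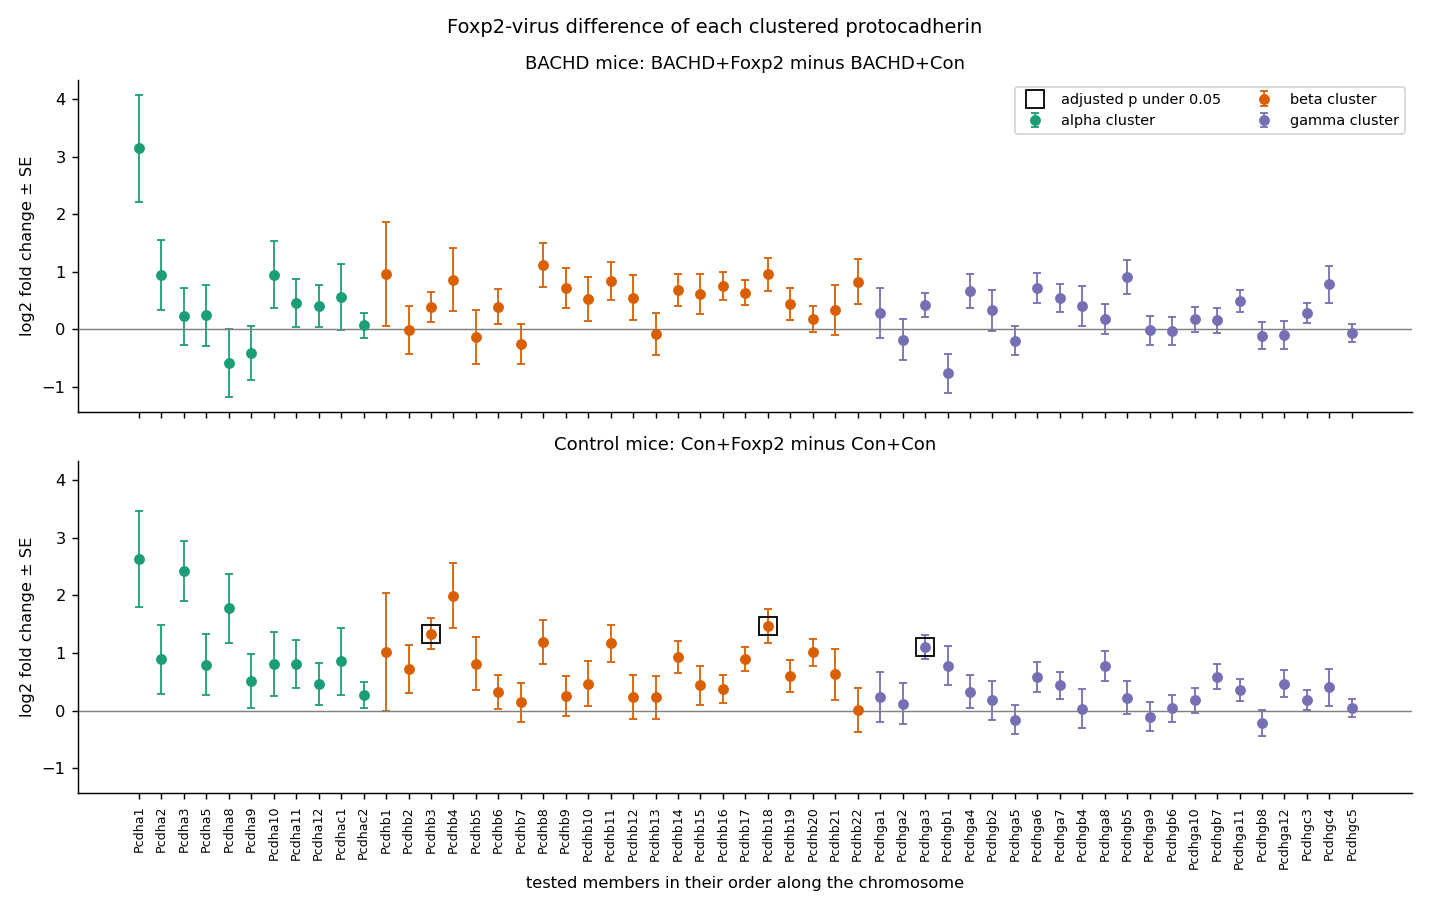
Log2 fold change ± SE of each tested member for BACHD+Foxp2 minus BACHD+Con (upper panel) and Con+Foxp2 minus Con+Con (lower panel), in order along the chromosome and coloured by cluster, with boxes around members at an adjusted p under 0.05. Members above 0 number 41 of 55 in BACHD mice and 52 of 55 in control mice.

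Single members passed the test in control mice and on the mean effect over both genotypes, most of them beta genes. With p-values of edgeR's quasi-likelihood test, adjusted by the method of Benjamini and Hochberg over all genes tested, 0 members were called in BACHD mice, and 0 by DESeq2, against a background of 0.0885% of genes called higher by edgeR. At an unadjusted p under 0.05, 15 of the 55 were higher and 1 lower there, against 3.68% of all genes higher. In control mice 3 members rose (Pcdhb3, Pcdhb18 and Pcdhga3), against 0.14% of genes called higher. At an unadjusted p under 0.05, 17 were higher and 0 lower, against 3.14% of all genes higher. On the mean of the virus effect over both genotypes 8 members rose (1 alpha, 6 beta and 1 gamma), against 0.42% of genes called higher. At an unadjusted p under 0.05, 25 were higher and 0 lower, against 5.32% of all genes higher, and 49 had a positive log2 fold change, against 49.5%. The groups did not overlap, with the Foxp2-virus mice higher, for 7 members in BACHD mice (background 1.78%) and for 16 in control mice (2.71%). Pcdha1, Pcdhb8, Pcdhb17 and Pcdhb18 did not overlap in either genotype, 4 of 55 against a background of 0.295%.

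Pcdha1, the most upstream alpha gene, had the largest fold of the called members. It was at 7.68, 6.87, 2.06 and 3.19 CPM in BACHD+Foxp2 mice, against 1.72, 0, 0 and 0.385 CPM in BACHD+Con mice. In Con+Foxp2 mice it was at 5.15, 9.16, 8.62 and 6.55 CPM, against 1.77, 0, 0.321 and 2.60 CPM in Con+Con mice. The groups did not overlap in either genotype, and control-virus mice were near or under the limit of detection, with 6 reads in all in BACHD+Con and 14 in Con+Con. The mean virus effect was a log2 fold change of 2.89 ± 0.62 (SE), with an adjusted p of 0.0173 by edgeR's quasi-likelihood test. Pcdha3 was at 4.02, 14.1, 2.75 and 4.78 CPM in BACHD+Foxp2 mice, against 6.19, 5.28, 5.04 and 5.40 CPM in BACHD+Con mice. In Con+Foxp2 mice it was at 12.9, 9.82, 15.9 and 9.83 CPM, against 3.84, 2.25, 1.93 and 0.744 CPM in Con+Con mice. Its groups overlapped in BACHD mice and were apart in control mice, where the log2 fold change was 2.42 ± 0.52 (SE) and the adjusted p 0.0524 by edgeR's quasi-likelihood test. Pcdha10, Pcdha11 and Pcdha12 had mean virus effects of 0.88, 0.64 and 0.44 on the log2 scale and were not called.

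Among beta genes, which carry all of their coding sequence in 1 exon, Pcdhb18 had the lowest p. It was at 34.0, 25.2, 24.8 and 24.2 CPM in BACHD+Foxp2 mice, against 17.9, 14.2, 17.5 and 5.78 CPM in BACHD+Con mice. In Con+Foxp2 mice it was at 25.8, 30.1, 40.1 and 28.9 CPM, against 8.26, 15.4, 11.3 and 10.04 CPM in Con+Con mice. All 8 Foxp2-virus mice were above all 8 control-virus mice, and the mean virus effect was a log2 fold change of 1.21 ± 0.20 (SE), with an adjusted p of 0.00207 by edgeR's quasi-likelihood test. Pcdhb17 was at 30.7, 39.3, 25.8 and 42.1 CPM in BACHD+Foxp2 mice, against 19.6, 22.5, 21.5 and 25.1 CPM in BACHD+Con mice. It was at 35.1, 37.6, 39.1 and 25.4 CPM in Con+Foxp2 mice, against 17.997, 19.6, 21.5 and 14.1 CPM in Con+Con mice. The virus groups were apart in both genotypes, with a mean log2 fold change of 0.77 ± 0.15 (SE) and an adjusted p of 0.00832 by edgeR's quasi-likelihood test. Pcdhb8 was at 20.5, 14.1, 16.5 and 10.2 CPM in BACHD+Foxp2 mice, against 5.84, 9.25, 9.74 and 3.08 CPM in BACHD+Con mice. It was at 11.9, 12.1, 12.9 and 14.7 CPM in Con+Foxp2 mice, against 4.72, 4.83, 3.54 and 9.67 CPM in Con+Con mice. Its groups were apart in both genotypes, and its mean log2 fold change of 1.16 had an adjusted p of 0.0293 by edgeR's quasi-likelihood test.

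Pcdhb3 rose on the mean effect, by a log2 fold change of 0.86 ± 0.19 (SE), with an adjusted p of 0.0173 by edgeR's quasi-likelihood test. It was at 20.8, 15.7, 21.7 and 17.5 CPM in BACHD+Foxp2 mice, against 15.1, 17.8, 14.1 and 10.8 CPM in BACHD+Con mice. In Con+Foxp2 mice it was at 20.9, 20.6, 27.5 and 19.4 CPM, against 8.56, 6.11, 8.04 and 12.3 CPM in Con+Con mice. The groups overlapped in BACHD mice, where the log2 fold change was 0.38 and the adjusted p 0.792 by edgeR's quasi-likelihood test. They were apart in control mice, where the log2 fold change was 1.34 ± 0.27 (SE) and the adjusted p 0.0265. The difference between the genotypes was -0.95 ± 0.37 (SE) on the log2 scale, with an unadjusted p of 0.0170 and an adjusted p of 1. Pcdhb11 and Pcdhb14 were called on the mean virus effect, with log2 fold changes of 1.00 and 0.81 and adjusted p-values of 0.0277 and 0.0416 by edgeR's quasi-likelihood test. Pcdhb14 was at 39.1, 28.5, 25.5 and 30.9 CPM in BACHD+Foxp2 mice, against 28.2, 15.2, 19.8 and 13.5 CPM in BACHD+Con mice, and at 21.9, 53.0, 39.8 and 28.1 CPM in Con+Foxp2 mice, against 20.1, 21.2, 20.6 and 12.3 CPM in Con+Con mice. Pcdhb11 was at 27.1, 15.7, 40.3 and 14.7 CPM in BACHD+Foxp2 mice, against 12.4, 14.9, 14.8 and 12.3 CPM in BACHD+Con mice, and at 21.9, 19.3, 30.2 and 22.9 CPM in Con+Foxp2 mice, against 9.15, 11.9, 15.4 and 5.21 CPM in Con+Con mice. In BACHD mice both had overlapping groups. Pcdhb20, the highest beta gene per GENCODE length over the 16 libraries, and Pcdhb16 had mean virus effects of 0.60 and 0.57 and were not called. Pcdhb1 varied between 0 and 5.85 CPM over the 16 mice.

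Pcdhga3 was the only gamma member called by edgeR over the 16 libraries. It was at 27.1, 27.2, 27.2 and 24.9 CPM in BACHD+Foxp2 mice, against 20.3, 21.1, 25.2 and 12.3 CPM in BACHD+Con mice. In Con+Foxp2 mice it was at 35.7, 43.8, 40.1 and 35.2 CPM, against 17.4, 15.4, 20.9 and 18.2 CPM in Con+Con mice. The groups overlapped in BACHD mice and were apart in control mice, where the log2 fold change was 1.10 ± 0.21 (SE) and the adjusted p 0.0187 by edgeR's quasi-likelihood test. Its mean virus effect was 0.76, with an adjusted p of 0.00817. Pcdhgc3, a C-type gene, averaged 104 ± 19.1 CPM in BACHD+Foxp2, 99.0 ± 16.5 in Con+Foxp2, 85.2 ± 19.2 in BACHD+Con and 87.1 ± 11.4 in Con+Con mice (SD, n = 4 each). Pcdhgc5 averaged 102 ± 15.8, 94.4 ± 17.8, 107 ± 6.27 and 91.5 ± 19.2 CPM in the same groups, with a mean virus effect of -0.01 ± 0.11 (SE) on the log2 scale. Pcdhgc4, Pcdhac1 and Pcdhac2 had mean virus effects of 0.59, 0.71 and 0.17 and were not called. Pcdhga4, Pcdhga6, Pcdhga7 and Pcdhga11 had mean virus effects of 0.50, 0.65, 0.49 and 0.43 and were not called by edgeR. DESeq2 did call Pcdhga6 on the mean effect.

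**Figure D4:**
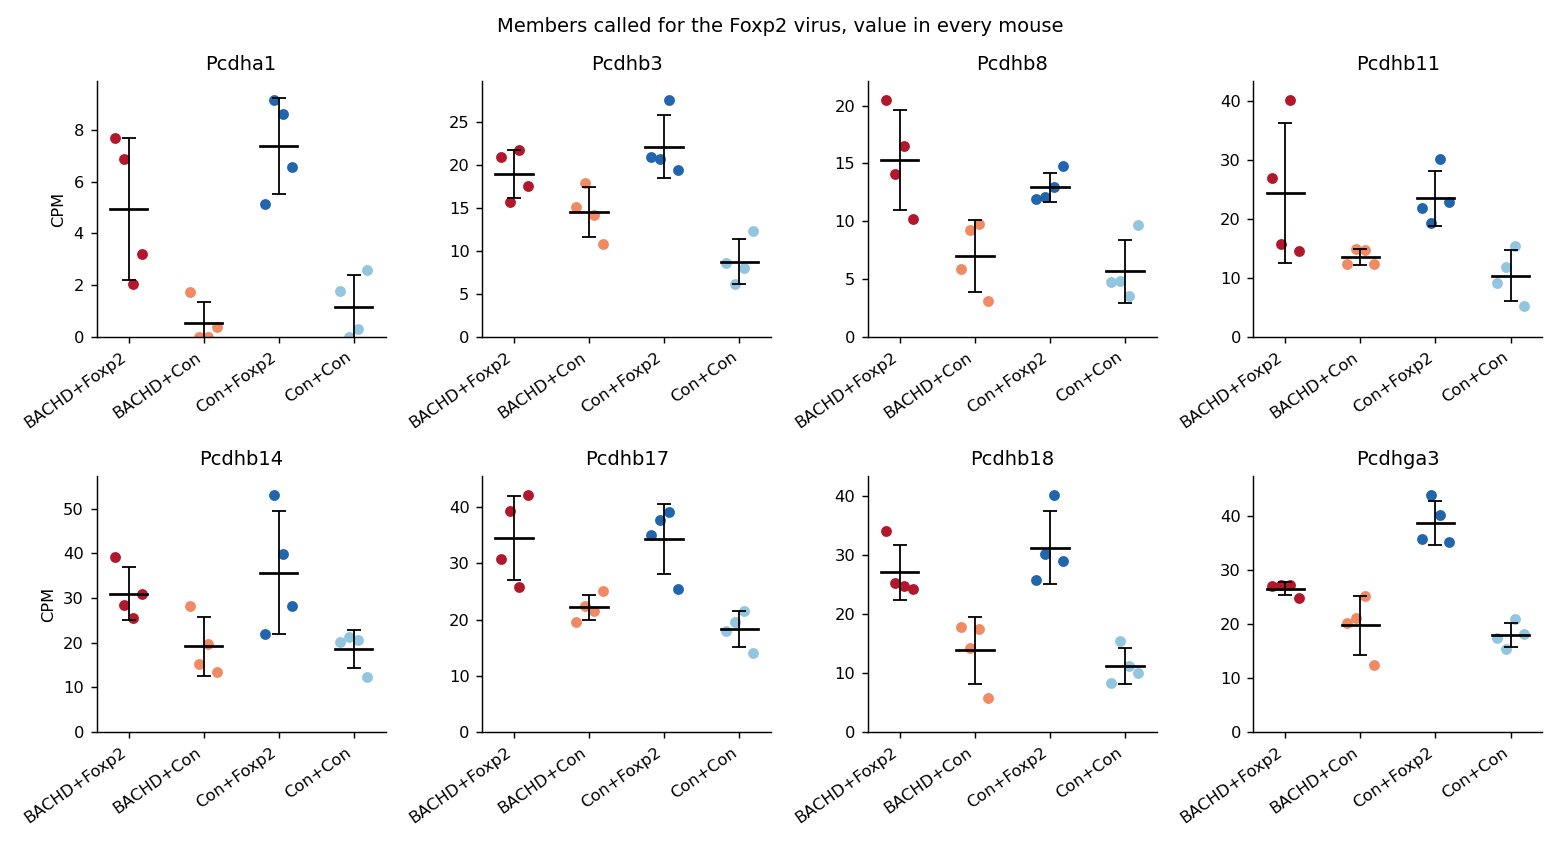
CPM of the 8 members called for the Foxp2 virus, on the mean effect over both genotypes or in control mice, in order along the chromosome, with 1 point per mouse and the mean ± SD in black. Pcdhb18 is at 24.2 to 40.1 CPM in the Foxp2-virus mice and at 5.78 to 17.9 CPM in the control-virus mice.

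The number of calls moved when single mice were left out. In control mice the count of called members was 0 without Con+Foxp2 mouse 2 or mouse 3, 1 without Con+Con mouse 1, 2 or 4, and at most 4 without any single mouse. On the mean effect it was 4 without Con+Foxp2 mouse 3 and 5 when BACHD+Foxp2 mouse 1 or BACHD+Con mouse 4 was left out. Pcdhb18, Pcdhga3, Pcdha1 and Pcdhb17 were called on the mean effect whichever single mouse was left out, and Pcdhb3 was lost only without Con+Foxp2 mouse 3, with an adjusted p of 0.0539 by edgeR's quasi-likelihood test. Pcdhb8 was lost without any 1 of BACHD+Foxp2 mice 1 and 3, Con+Foxp2 mice 1, 3 and 4, BACHD+Con mice 1 and 4 and Con+Con mice 1 and 2, with an adjusted p of up to 0.0817. Pcdhb11 was lost without any 1 of BACHD+Foxp2 mice 1 and 3, Con+Foxp2 mice 3 and 4, BACHD+Con mice 1, 3 and 4 and Con+Con mice 1 and 4, with an adjusted p of up to 0.0805. Pcdhb14 was lost without any 1 of BACHD+Foxp2 mice 1, 2 and 4, Con+Foxp2 mice 2 and 3, BACHD+Con mice 2, 3 and 4 and Con+Con mice 1, 2 and 4, with an adjusted p of up to 0.128. Of the calls in control mice, Pcdhb3 was lost without any 1 of Con+Foxp2 mice 1, 2 and 3 and Con+Con mice 1, 2 and 3 (adjusted p up to 0.157). Pcdhb18 was lost there without Con+Foxp2 mouse 2 or 3 or Con+Con mouse 1 or 4 (up to 0.122), and Pcdhga3 without Con+Foxp2 mouse 2 or 3 or Con+Con mouse 1, 2 or 4 (up to 0.107).

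Between genotypes 0 members were called by edgeR and 0 by DESeq2. Under the Foxp2 virus, 0 of 55 were called, against 0.059% of genes, and at an unadjusted p under 0.05, 3 were lower in BACHD+Foxp2 than in Con+Foxp2 mice, against 4.18% of genes in either direction. Under the control virus, 0 were called, against 0.0147%, and at an unadjusted p under 0.05, 3 were higher in BACHD+Con than in Con+Con mice, against 3.44%. On the mean over both viruses 0 were called, against 0.0369%, and 0 had an unadjusted p under 0.05, against 4.05%. The alpha, beta and gamma sums overlapped between genotypes under both viruses, with ratios of BACHD over control geometric means between 0.833 and 1.20. The alpha share of protocadherin reads did not overlap under the Foxp2 virus, at 8.45 to 9.44% in BACHD+Foxp2 and 9.87 to 10.4% in Con+Foxp2 mice. The beta and gamma shares overlapped there, and all shares overlapped between genotypes under the control virus. The alpha genes without the C-type members were lower in BACHD+Foxp2 than in Con+Foxp2 mice, at 65.1 ± 5.99 against 90.5 ± 14.0 CPM (SD, n = 4 each), without overlap. Foxp2 itself also differed between these groups, at 1595 ± 288 CPM in BACHD+Foxp2 and 4015 ± 431 in Con+Foxp2 mice. Genotype and amount of Foxp2 thus went together under the Foxp2 virus. Their parts in the genotype differences under that virus and in the interaction were not tested. Genotype by virus interaction was called for 0 members by edgeR and 0 by DESeq2, against 0% of all genes, and 6 had an unadjusted p under 0.05, all with a lower log2 fold change in BACHD mice than in control mice, against 3.8% of genes in either direction. Of these, Pcdhgb1 and Pcdha8 (named after their values were seen) were negative in BACHD mice, at -0.76 and -0.58, and at 0.78 and 1.78 in control mice. The lowest of these p-values was that of Pcdhgb1, at 7.68, 5.89, 14.1 and 15.3 CPM in BACHD+Foxp2, 15.5, 22.3, 26.2 and 14.5 in Con+Foxp2, 16.5, 22.8, 18.8 and 15.0 in BACHD+Con and 9.15, 12.5, 6.43 and 17.5 in Con+Con mice. Its interaction was -1.55 ± 0.48 (SE) on the log2 scale.

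The authors' deposited table for Con+Foxp2 against Con+Con, made with DESeq2, gave 7 of the 56 members with an adjusted p there as higher at an adjusted p under 0.05: Pcdha1, Pcdha3, Pcdhb3, Pcdhb17, Pcdhb18, Pcdhb20 and Pcdhga3. Of all genes with an adjusted p in the authors' deposited table for that comparison, 0.382% were higher past the threshold. The authors' deposited tables for BACHD+Foxp2 against BACHD+Con and for BACHD+Con against Con+Con gave 0 members past that threshold. Run on the same counts over all 16 libraries, DESeq2 called 6 members higher in control mice, against 0.285% of all genes with an adjusted p. It called 11 higher on the mean effect, against 0.663%. These were the 8 that edgeR called on the mean effect, with Pcdha3, Pcdhb4 and Pcdhga6.

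No tested gene of the lists for promoter choice and for partners of the proteins passed the test. Of the promoter-choice list 13 of 15 genes were tested and of the partner list 16 of 16, and 0 were called in any of the 7 comparisons by edgeR and 0 by DESeq2. On the mean virus effect, the promoter-choice list had 1 gene higher and 2 lower at an unadjusted p under 0.05, with a median log2 fold change of -0.03, and the partner list 1 higher and 3 lower, with a median of -0.06. Of all genes tested, 5.32% were higher and 5.51% lower at that threshold. Without overlap in BACHD mice, 1 promoter-choice gene was lower and 0 were higher, against 320 and 241 of all 13563 genes. This was Dnmt3a (named after its values were seen), at 194 ± 13.6 CPM in BACHD+Foxp2 and 238 ± 23.6 in BACHD+Con mice. It was at 194 ± 19.1 CPM in Con+Foxp2 and 217 ± 24.1 in Con+Con mice, where the groups overlapped. Ctcf, which encodes the insulator protein, averaged 91.9 ± 16.3 CPM in BACHD+Foxp2, 98.0 ± 10.8 in Con+Foxp2, 83.5 ± 7.77 in BACHD+Con and 80.0 ± 12.1 in Con+Con mice. Smchd1, a silencer of these clusters, averaged 83.9 ± 16.5, 82.3 ± 4.80, 75.9 ± 7.87 and 87.6 ± 5.11 CPM in the same groups. Of the 48 genes within 1000 kb of the clusters 37 were tested, with a median log2 fold change of -0.10 in BACHD mice and -0.07 in control mice. Arhgap26 was the only neighbour called, and fell by 0.42 on the log2 scale on the mean virus effect, with an adjusted p of 0.00646 by edgeR's quasi-likelihood test, against 0.634% of all genes called lower. Taf7, named for its place between the beta and gamma clusters, averaged 22.2 ± 4.67 CPM in BACHD+Foxp2, 18.7 ± 6.52 in Con+Foxp2, 24.0 ± 8.995 in BACHD+Con and 22.4 ± 2.89 in Con+Con mice.

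Markers of other cells were measured beside these results. The striatal projection neuron markers had a summed level of 3681 to 4973 CPM in BACHD+Foxp2, 3433 to 4172 in Con+Foxp2, 3789 to 6084 in BACHD+Con and 3220 to 6608 in Con+Con mice. Their log2 fold changes with the Foxp2 virus were positive for 1 of 11 in BACHD mice, with a median of -0.23, and for 0 of 11 in control mice, with a median of -0.44. At an unadjusted p under 0.05, 0 of the 11 were lower in BACHD mice, 7 in control mice, against 3.9% of all genes lower, and 7 on the mean effect, against 5.51%. The striatal interneuron markers were lower without overlap in Con+Foxp2 mice, at 332 ± 47.4 against 472 ± 43.1 CPM in Con+Con mice, and the microglial markers were higher without overlap in BACHD+Foxp2 mice, at 295 ± 21.2 against 217 ± 19.4 CPM in BACHD+Con mice. On the mean virus effect 3 of 10 interneuron markers were called lower, against 0.634% of all genes. Called higher were 3 of 9 astrocyte and 1 of 9 microglial markers, against 0.42%. The astrocyte markers were mixed, with 6 of 9 positive on the mean effect, a median log2 fold change of 0.06 and a lowest of -0.81. At an unadjusted p under 0.05, 4 astrocyte markers were higher and 1 lower, against 5.32% and 5.51% of all genes. All 9 microglial markers were positive on the mean effect. All 10 interneuron markers were negative in both genotypes, and the 8 oligodendrocyte markers were all negative in control mice and positive for 6 in BACHD mice. In the other virus comparisons the summed levels of the 10 marker lists overlapped, and those of choroid plexus ran from 109.6 to 10612 CPM over the 16 mice. The part of these cells in the protocadherin values was not tested. Markers of cortical excitatory neurons, cells that lie next to the dissected tissue, ranged from 444 to 1020 CPM in BACHD+Foxp2, from 211 to 849 in Con+Foxp2, from 41.3 to 957 in BACHD+Con and from 68.4 to 1161 in Con+Con mice, with 8 of 9 markers higher with the Foxp2 virus in each genotype. All 9 cortical markers had reads in each group. Without the 3 libraries lowest in these markers, all of control-virus mice, the ratios of summed CPM were 1.19 for alpha, 1.51 for beta and 1.25 for gamma in BACHD mice and 1.68, 1.64 and 1.26 in control mice. The mean-effect calls then numbered 5, of which 4 were among the 8 (Pcdhb3, Pcdhb8, Pcdhb18 and Pcdhga3) and the other was Pcdhga6, against 0.231% of all genes called higher in these 13 libraries. Adjusted p-values there were 0.0753 for Pcdha1, 0.104 for Pcdhb17, 0.150 for Pcdhb11 and 0.340 for Pcdhb14 by edgeR's quasi-likelihood test. Their log2 fold changes were 2.73, 0.71, 0.97 and 0.68, against 2.89, 0.77, 1.00 and 0.81 over the 16 libraries. Calls over all genes in either direction numbered 61, against 143 over the 16 libraries. The part of cortical tissue in these results was not tested.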

How the data were processed

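Striatal RNA was extracted with the Qiagen RNeasy Lipid Tissue Kit and made into libraries with Clontech SMARTer for the Illumina HiSeq, per the labels' protocols. The authors deposited raw read counts per gene for each library, made with STAR 2.4.0 and HTSeq on mm10, per the submitters' processing notes. The sources used here give no annotation, strand setting or counting mode. Of the listed reads, 22.5 to 24.7% were assigned to genes. The authors also deposited log2 fold changes and p-values of 3 comparisons from DESeq2, per the file headers and the submitters' processing notes. Labels do not say whether mice were littermates. The p-values set the difference between groups against the spread between mice. No pair of libraries held identical values.

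Counts were tested in R 4.3.3 with edgeR 4.0.16 (quasi-likelihood test, 1 mean per group, TMM scaling, the default filter on low counts, 12 residual degrees of freedom before moderation). Benjamini-Hochberg adjustment ran over 13563 genes, with a threshold of 0.05. SE is the log2 fold change divided by the square root of the F statistic. CPM used TMM-scaled library totals. Cluster sums were compared by means, SD and overlap of the groups, with no p, and their ratios are of geometric means. DESeq2 1.42.0 was an alternative. Gene coordinates are from RefSeq, and lengths from GENCODE exons, for 56 members. The test was tried on simulated counts with the same spread for all genes and changes only in genes with more reads than Pcdha1. That trial does not cover the low counts and wider spread of the alpha members. Genes named were those called, the 3 most abundant per cluster, the C-type members, and those of lowest p for the mean virus effect (4) or mean genotype effect (2) per cluster, with Foxp2, Ctcf, Smchd1 and any called regulator, partner or neighbour; other names are marked or given as counts. The members and lists were chosen with earlier results of these data known. Floors of 3 reads cover counting error only.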

Additional observations from a re-analysis of the deposited data

Results flagged for a closer look

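For the 24 named members and the 3 cluster sums, 108 groups of 4 mice were examined for a mouse that stood apart from the other 3 by Dixon's test, and 8 did; chance alone flags about 1 group in 20. Pcdhac1 was at 8.56 CPM in Con+Con mouse 1, where the other 3 mice were at 1.61 to 2.57 CPM. Pcdhac2 was at 41.0 CPM in Con+Foxp2 mouse 4, where the others were at 24.9 to 27.4 CPM. Pcdhb14 was at 12.3 CPM in Con+Con mouse 4, where the others were at 20.1 to 21.2 CPM. Pcdhb18 was at 34.0 CPM in BACHD+Foxp2 mouse 1, where the others were at 24.2 to 25.2 CPM. Pcdhb20 was at 34.9 CPM in BACHD+Con mouse 3, where the others were at 18.9 to 20.04 CPM. Pcdhga3 was at 24.9 CPM in BACHD+Foxp2 mouse 4, where the others were at 27.1 to 27.2 CPM. In that mouse the alpha sum was 119 CPM, where the others were at 100.5 to 103 CPM, and the gamma sum was 787 CPM, where the others were at 635 to 655 CPM. The causes were not tested.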

How the results depend on the processing

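The counts of called members kept their size within 1.5 times under other scalings, filters, sample sets and the replicate block, with these exceptions. DESeq2 called 6 members in control mice, against 3, while its 11 calls on the mean effect, against 8, stayed within that limit. Leaving out 1 mouse gave 0 to 4 calls in control mice and 4 to 8 on the mean effect. Without the 3 libraries lowest in cortical markers the mean effect gave 5 calls. With the mean log2 CPM over members in place of the sum, the alpha log2 ratio was 1.05 for the virus in control mice, against 0.83, and -0.42 between genotypes under the Foxp2 virus, against -0.26. The cause was not tested. Some effects that did not pass the test changed sign when 1 mouse was left out: Pcdhac2 in BACHD mice ranged from -0.075 to 0.22 on the log2 scale, Pcdha3 in BACHD mice from -0.51 to 0.48, Pcdhb1 in control mice from -0.32 to 2.19, and Pcdhgc5 from -0.14 to 0.013 in BACHD mice, from -0.053 to 0.18 in control mice and from -0.053 to 0.062 on the mean effect. Without TMM scaling the mean effect of Pcdhgc5 was 0.0036. Replicate numbers did not pair the mice: of 24 same-number pairs the correlation of deviations ran from -0.168 to 0.102, with 2 pairs over 0.1, and 1 of 16 libraries correlated best with its own number. With the replicate block 0 members were called in BACHD mice, 2 in control mice and 7 on the mean effect. Low counts limit precision: Pcdha1 had 6 reads over the 4 BACHD+Con mice.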
